A study of Homo sapiens with 4 samples.

Results

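The major and minor spliceosomal small nuclear RNAs (snRNAs) were measured in the pull out of miR-28-5p with its bound RNA from DU-145 cells, an established human prostate cancer cell line. They were chosen by gene identity as 10 genes, RNU2-1, RNU4-1, RNU4-2, RNU5A-1, RNU5B-1, RNU11, RNU12, RNU4ATAC, RNU6ATAC and RNU7-1, of 25995 gene names in the files. RefSeq identifiers gave 19 transcript records for them, of 53209, since RNU2-1 is listed at 10 places and each other gene at 1. In the miR-28CT arm (2 libraries), cells were transfected with 60 nM of an untagged miR-28-5p duplex. In the miR-28BIO arm (2 libraries), they were given the same dose of a mix of 2 miR-28-5p duplexes, each with biotin at the 3′ end and a thiouridine that links to bound RNA under UV light. All cells were irradiated and the RNA of both arms was incubated with streptavidin beads, so miR-28CT holds background RNA and has no capture tag. The labels number the libraries 1 and 2 in each arm. Unless stated otherwise, the p-values rest on the spread between the 2 libraries within each arm, all of 1 cell line.

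Library totals estimated from the ratio of coverage to FPKM were between 13.0 M and 17.9 M reads. Levels are FPKM as deposited, that is, fragments normalised to the length of the transcript and to the mapped reads of the library. Of 5 epithelial markers of DU-145, 4 were above 1 FPKM in all 4 libraries, and the 5 ranged from 0.907 to 83.7 FPKM. Of 4 prostate luminal genes 3 were listed at 0 in all libraries, and the highest value among 6 genes of other cell types was 0.178 FPKM, with 4 of them at 0 in all libraries. A listed 0 is not absence in these files, since 6 of 114 genes of the snRNA pathway, among them PRPF8 and U2AF1, which every splicing cell uses, were also at 0 in all 4 libraries. The marker levels thus describe the libraries and do not settle which cells were present.

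Introns are removed by spliceosomes built from snRNAs and proteins. In the major spliceosome, U2 pairs with the branch point, U4 holds U6 inactive by base pairing until activation, and U5 contacts the exon ends. The minor spliceosome, which removes a small class of introns, uses U11 and U12 for recognition of the 5′ splice site and branch point, and U4atac and U6atac in place of U4 and U6, while U5 is shared. U7, the product of RNU7-1, is not spliceosomal. It is an Sm-class snRNA that directs the cleavage of the 3′ end of histone pre-mRNAs, and it is listed here with the others.

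The 5 sequences below show the U4 pair, whose levels are compared, the minor snRNAs with a value above 0, and the repeated U2 gene. They were read from hg38 on the transcribed strand at the coordinates of the files, written as DNA, 5′ to 3′, with the Sm-like motif in capitals, where the ring of Sm proteins is known to assemble.
RNU4-1: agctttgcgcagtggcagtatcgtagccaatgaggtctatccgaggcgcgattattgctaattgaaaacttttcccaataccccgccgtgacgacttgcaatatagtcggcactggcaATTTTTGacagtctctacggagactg
RNU4-2: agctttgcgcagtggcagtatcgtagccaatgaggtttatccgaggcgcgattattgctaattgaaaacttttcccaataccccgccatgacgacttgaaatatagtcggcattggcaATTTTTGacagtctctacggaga
RNU11: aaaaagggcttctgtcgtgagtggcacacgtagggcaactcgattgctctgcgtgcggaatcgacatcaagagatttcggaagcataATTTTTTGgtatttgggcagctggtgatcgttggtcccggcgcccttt
RNU12: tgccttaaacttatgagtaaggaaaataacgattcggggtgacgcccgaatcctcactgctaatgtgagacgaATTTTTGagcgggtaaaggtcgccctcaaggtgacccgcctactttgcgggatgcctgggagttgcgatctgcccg
RNU2-1: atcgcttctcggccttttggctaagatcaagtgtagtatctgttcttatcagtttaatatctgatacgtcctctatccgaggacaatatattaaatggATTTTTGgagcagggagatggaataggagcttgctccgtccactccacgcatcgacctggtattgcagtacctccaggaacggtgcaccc

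The U4 genes lie side by side on the minus strand of chromosome 12 (hg38), RNU4-2 at chr12:120291763-120291903 and RNU4-1 at chr12:120293094-120293237, and no other annotated gene of GENCODE v44 overlaps them. They matched at 137 of 141 aligned bases (97.2%). Counted from the 5′ end of RNU4-1, with its base first, the differences were C37T, G88A, C99A and C113T. Of the 95 windows of 50 bases (the read length) in RNU4-1 only 1 was shared with RNU4-2. On the main chromosomes 83 of these 95 windows occurred once, as did 91 of the 92 windows of RNU4-2, so a part of the RNU4-1 reads could also be placed elsewhere. RNU11 (chr1:28648600-28648734, plus strand) overlaps an exon of an annotated lncRNA, and RNU12 (chr22:42615245-42615393, plus strand) lies within an lncRNA exon and an intron of a coding gene on the other strand. Reads of RNU11 and RNU12 cannot be told apart from reads of those lncRNAs where they overlap. All 86 windows of RNU11 and all 100 of RNU12 occurred once on the main chromosomes.

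The 10 copies of RNU2-1 lie on the minus strand of chromosome 17 within an intron of CCDC200 and are identical over their 188 bases. None of their 139 windows occurred once in the genome, and each was found at 12 to 16 places. The motif ATTTTTG or ATTTTTTG was found in 8 of the 10 genes with both strands searched, and in 15 of 586 other records of the same length span (2.56%) with microRNA records left out. RNU6ATAC and RNU7-1 had neither spelling. These matches describe the letters only.

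Of the 10 genes, 6 had a value above 0 in any library. RNU4-1 and RNU4-2 were listed above 0 in all 4 libraries, as no other member was. The other major snRNAs with a value were the U5 genes, and the minor ones were U11 and U12. The number of genes above 0 was 5 in each miR-28CT library and 3 in each miR-28BIO library.

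**Figure D1:**
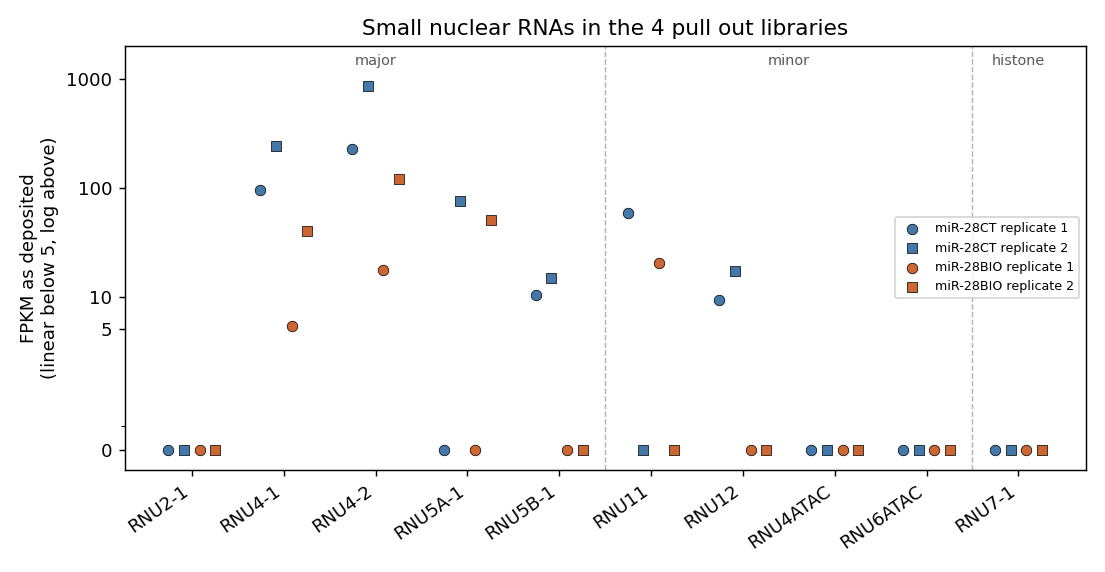
Deposited FPKM of each of the 10 snRNA genes in the 4 libraries, on an axis that is linear below 5 and logarithmic above. The RNU4-1 and RNU4-2 points are above 0 in all 4 libraries, with both miR-28BIO points below both miR-28CT points, RNU5B-1 and RNU12 have points above 0 only in miR-28CT, and 4 genes lie at 0 throughout.

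RNU4-2 was at 224.8 FPKM in the first and 864.9 FPKM in the second miR-28CT library, against 17.4 and 120.2 FPKM in miR-28BIO. Values of an arm are given in the order of the replicate numbers here. RNU4-1 was at 94.3 and 241.2 FPKM in miR-28CT and at 5.41 and 39.6 FPKM in miR-28BIO. Both miR-28BIO libraries were below both miR-28CT libraries for each gene, and replicate 2 was the higher library in each arm. RNU4-2 made up 70.5% and 78.2% of the summed U4 FPKM in miR-28CT and 76.3% and 75.2% in miR-28BIO, so the ranges of the 2 arms overlapped.

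After scaling by the median of ratios, RNU4-2 was 614.1 ± 569.9 FPKM (SD, n = 2) in miR-28CT and 63.5 ± 66.5 in miR-28BIO, a ratio of means of 9.67. The same values for RNU4-1 were 186.1 ± 137.9 and 20.8 ± 22.1, a ratio of 8.96. Within an arm, replicate 2 was 4.82 times replicate 1 for RNU4-2 in miR-28CT and 6.70 times in miR-28BIO, and for RNU4-1 the values were 3.20 and 7.10 times. Between libraries of the same number, miR-28CT was 12.8 and 9.20 times miR-28BIO for RNU4-2, and 17.3 and 7.79 times for RNU4-1. The ratio between the libraries of one arm was thus below the ratio between the arms, and was nearer to it in miR-28BIO than in miR-28CT. On log2(scaled FPKM + 0.1), limma's log2 fold change (miR-28BIO minus miR-28CT) was -3.43 (SE 1.37) for RNU4-2 and -3.52 (SE 1.24) for RNU4-1. Neither passed the adjusted threshold (limma with Benjamini-Hochberg adjustment, unadjusted p = 0.0645 and 0.0457, adjusted p = 1.00 for both). In these bulk libraries fewer cells with an RNA, less of it per cell and less of it on the beads cannot be told apart.

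RNU5B-1 was at 10.4 and 14.7 FPKM in miR-28CT and was listed at 0 in both miR-28BIO libraries. RNU12 was at 9.35 and 16.98 FPKM in miR-28CT and was also listed at 0 in both miR-28BIO libraries. The lower bound that Cufflinks gave was 0 FPKM for RNU5B-1 in both miR-28CT libraries, with upper bounds of 3.23 and 4.44 FPKM. For RNU12 in miR-28CT the bounds were 0 and 3.26 FPKM in replicate 1 and 0.499 and 6.98 FPKM in replicate 2. No fold is given for these 2 genes, because their miR-28BIO values are 0. Neither passed (limma, unadjusted p = 0.000217 for RNU5B-1 and 0.000345 for RNU12, adjusted p = 0.209 and 0.246).

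RNU5A-1, the other U5 gene among the members, had another pattern. It was listed at 0 in replicate 1 of both arms and at 75.04 and 50.5 FPKM in replicate 2 of miR-28CT and miR-28BIO. RNU11 had the opposite one, at 58.5 and 20.1 FPKM in replicate 1 of miR-28CT and miR-28BIO and at 0 in replicate 2 of both. For both genes the value was above 0 or at 0 by replicate number and not by arm, and the arms overlapped (limma, unadjusted p = 0.925 for RNU5A-1 and 0.864 for RNU11). The cause of the zeros was not tested. U11 and U12 act in one particle, and in miR-28CT replicate 2 and miR-28BIO replicate 1 one of them was listed at 0 while the other was not.

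RNU2-1 (all 10 copies), RNU4ATAC, RNU6ATAC and RNU7-1 were listed at 0 in every library, with a status of OK. U2 is an abundant RNA of every cell that splices, so its 0 is not read as absence of the RNA. All of its windows occur at 12 or more places, whereas all 81 windows of RNU4ATAC and all 14 of RNU7-1 occur once, and 43 of 76 of RNU6ATAC do. RNU7-1 overlaps an exon of the coding gene C12orf57 on its own strand and an exon of an lncRNA on the other strand. A value of 0 in all libraries was common among records of this length. Of 620 records of 63 to 188 bases not named as microRNAs, 66.1% were at 0 in all 4 libraries, and of the 19 member records 13 were (68.4%). Of those 13, 10 are identical copies of RNU2-1, and counted by gene 4 of 10 members (40%) were at 0. Over all records the share was 54.3%.

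Of the 6 genes tested, none was called, with 3 genes called among 11554 in the whole fit (0.026%), all lower in miR-28BIO and all of them small nucleolar RNAs (SNORD12C, SNORD57 and SNORD58A, each listed at 0 in both miR-28BIO libraries). With the replicate number as a block this changed, and limma called RNU4-2, RNU5B-1 and RNU12 lower (adjusted p = 0.0475, 0.0470 and 0.0475), beside 39 genes higher and 22 lower in all. Without the block, at an unadjusted p under 0.05, 3 members were lower (RNU4-1, RNU5B-1 and RNU12), where 97 of all genes were (0.84%). Both miR-28BIO values lay under both miR-28CT values for 4 of the 6, while this held for 12.6% of all genes tested and the reverse for 12.3%. All 6 log2 fold changes were below 0, with a median of -3.48 that is the midpoint of the values of RNU4-1 and RNU4-2, beside a median of -0.08 over all genes. A member could enter the test through its miR-28CT values alone, and the 4 genes at 0 were not tested. With 2 libraries against 2, an exact two-sided permutation test cannot give a p under 0.333.

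The deposited interval of each value bears on these levels. Cufflinks wrote a lower and an upper bound for each FPKM, and for long records the FPKM lies at their midpoint, with a median ratio of 1.00 to 1.01 over the 4 libraries for records of 500 to 999 bases. For records of 100 to 149 bases the FPKM was a median of 8.39 and 13.5 times the midpoint in miR-28CT, and 8.19 and 13.6 times in miR-28BIO. All 16 snRNA values above 0 lay above their own interval, by 3.99 to 29.8 times its midpoint, with a median of 10.9. By comparison, 8.74% to 10.8% of all values above 0 did so in a library. The level of an snRNA thus differed by these factors between the scales, and a ratio of levels between records of different length depends on the scale. What sets the gap was not tested.

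**Figure D2:**
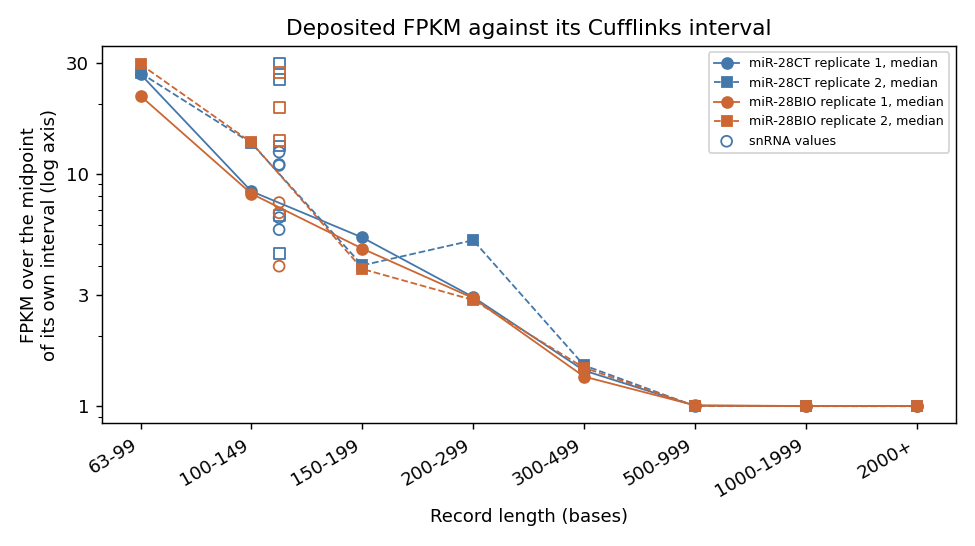
Deposited FPKM divided by the midpoint of its own Cufflinks interval, by record length in bases, on a log axis; lines join the medians of each library and open symbols are the 16 snRNA values above 0. The medians reach 1.00 to 1.01 at 500 to 999 bases, and the snRNA values lie between 3.99 and 29.8.

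On the midpoint scale, chosen after seeing the data, the U4 libraries of an arm lay much closer together. Scaled midpoints of RNU4-2 were 19.5 and 28.4 FPKM in miR-28CT and 2.80 and 4.17 in miR-28BIO, a ratio of means of 6.87. Those of RNU4-1 were 9.25 and 9.34 in miR-28CT and 1.48 and 1.94 in miR-28BIO, a ratio of 5.45. The lowest miR-28CT value was 4.67 times the highest miR-28BIO value for RNU4-2 and 4.78 times for RNU4-1, against 1.91 and 2.43 times in scaled FPKM. The Cufflinks intervals of the arms were also apart as deposited, with the lowest miR-28CT bound of RNU4-2 at 11.5 FPKM against a highest miR-28BIO bound of 7.93. For RNU4-1 these bounds nearly met, at 4.12 and 4.11 FPKM. On the log2 scale the midpoints differed by -2.75 (SE 0.40) for RNU4-2 and -2.39 (SE 0.32) for RNU4-1, and neither passed (limma, unadjusted p = 0.00212 and 0.00144, adjusted p = 0.340 and 0.301). On this scale no gene of 11729 was called by limma, with 407 higher and 214 lower at an unadjusted p under 0.05. With the replicate number as a block this changed. Both U4 genes were then called lower (limma, adjusted p = 0.0200 for RNU4-2 and 0.0230 for RNU4-1), beside 299 genes higher and 198 lower in all.

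**Figure D3:**
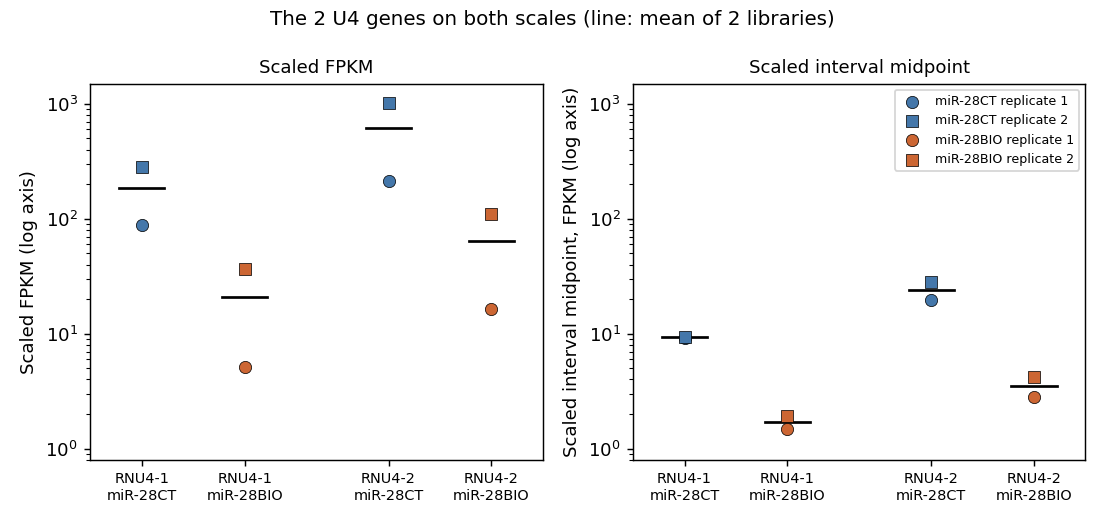
RNU4-1 and RNU4-2 in each library as scaled FPKM (left) and as the scaled midpoint of the Cufflinks interval (right), both on the same log axis; each symbol is 1 library and each line the mean of 2. The miR-28CT points lie above the miR-28BIO points on both scales, with the libraries of an arm closer together on the midpoint scale.

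Other snRNA records gave a mixed picture. Of 30 names listed, 18 were in the files and 6 were tested, with 3 values of the log2 fold change below 0 and 3 above. RNU5E-1, another U5 variant, was at 59.2 and 242.3 FPKM in miR-28CT and listed at 0 in both miR-28BIO libraries (limma, adjusted p = 0.239), like RNU5B-1. RNU5F-1 was at 69.2 and 44.5 FPKM in replicate 2 of miR-28CT and miR-28BIO and at 0 in replicate 1 of both, like RNU5A-1. RNVU1-3, a U1 variant, ran the other way, at 0 in both miR-28CT libraries and at 11.2 and 21.5 FPKM in miR-28BIO (limma, adjusted p = 0.209). The arms overlapped for the other 3 U1 variants tested, RNVU1-6, RNVU1-14 and RNVU1-15. The records of RNU1-1, RNU1-3 and RNU6 genes, which encode the standard U1 and U6, were at 0 in all libraries.

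Most of the other short structural RNAs had lower values in miR-28BIO. All 14 tested of the 22 had a log2 fold change below 0, with a median of -3.06, and both miR-28BIO values lay under both miR-28CT values for 7 of them, against 12.6% of all genes. SNORD13 was below 0 only on the log2 scale, at -0.27 (SE 1.31), since its scaled means were 119.1 FPKM in miR-28CT and 151.9 FPKM in miR-28BIO. RN7SL1, of the signal recognition particle, also had values but was not tested, because its status was HIDATA in miR-28CT replicate 2, where it is listed at 0. It was at 2586 FPKM in miR-28CT replicate 1 and at 537.8 and 101751 FPKM in miR-28BIO, so its highest listed value was in miR-28BIO. RN7SK, the RNA that holds the elongation factor P-TEFb inactive, was at 42955 and 197925 FPKM in miR-28CT and at 6515 and 18029 FPKM in miR-28BIO. SNORD3A, the U3 RNA of ribosomal RNA processing, was at 98.5 and 193.9 FPKM in miR-28CT and at 6.97 and 10.2 FPKM in miR-28BIO. SCARNA10, a guide RNA of Cajal bodies, was at 720.8 and 2208 FPKM in miR-28CT and at 46.6 and 69.7 FPKM in miR-28BIO. The arms were also apart for RNY1, RPPH1, SCARNA5 and SCARNA7, and they overlapped for RMRP, RN7SL2, RNY5, SCARNA2, SCARNA6, SNORD13 and TERC. None of the 14 was called (limma, adjusted p = 0.680 for SNORD3A and 1.00 for RN7SK and SCARNA10). Set against RN7SK in the same library, the summed U4 FPKM was 0.743% and 0.559% in miR-28CT and 0.351% and 0.887% in miR-28BIO. Against RPPH1, the RNA of RNase P, it was 2.12% and 1.12% in miR-28CT and 1.44% and 2.06% in miR-28BIO. On interval midpoints the shares were lower, at 0.157% and 0.157% of RN7SK in miR-28CT and 0.149% and 0.240% in miR-28BIO. Those of RPPH1 were 0.435% and 0.125% in miR-28CT and 0.601% and 0.213% in miR-28BIO. In FPKM, the U4 sum was 3.03% and 0.445% of RMRP in miR-28CT and 1.06% and 0.274% in miR-28BIO. Of RN7SL2 it was 1.95% and 0.276% in miR-28CT and 0.584% and 0.274% in miR-28BIO. Between libraries of the same number, both of these shares were lower in miR-28BIO, while the RPPH1 midpoint share was higher. The arms overlapped for every ratio given, so a difference between U4 and these RNAs was not detectable with 2 libraries an arm.

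The proteins of the same particles are encoded by mRNAs, which are long records. All 14 Sm and LSm ring genes tested, whose products encircle snRNAs, had a log2 fold change below 0, with a median of -0.70, and 13 of 14 did so in FPKM without further scaling. The lowest was SNRPD2, at -1.87 (SE 0.47), with scaled values of 71.6 and 83.6 FPKM in miR-28CT and 21.2 and 21.1 in miR-28BIO (limma, unadjusted p = 0.0158, adjusted p = 1.00). LSM8 was highest, at -0.11 (SE 0.66), and its arms overlapped. LSM3 had the highest mean level, and its arms overlapped, at 116.8 and 23.6 FPKM in miR-28CT and 76.5 and 12.04 in miR-28BIO. Over all genes the median was -0.08 after scaling, with 55.8% of values below 0, and 0.08 in FPKM without further scaling, with 43.8% below 0. Of the 5 DU-145 markers, 4 were also below 0, with a median of -0.79, and their part in the Sm values was not tested.

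The U2 proteins had 11 of 14 values below 0 (median -0.18), but 7 of 14 in FPKM without further scaling. SF3B5 had the lowest and SF3B4 the highest, at -1.31 (SE 1.27) and 0.61 (SE 0.71). The U4/U6.U5 tri-snRNP proteins had 11 of 14 below 0 (median -0.33), and 9 of 14 in FPKM without further scaling. SNU13, which binds the U4 RNA directly, was lowest at -0.97 (SE 0.58), and CD2BP2 highest at 0.88 (SE 0.40), with both arms apart for each. EFTUD2, a U5 GTPase, had the highest mean level of that list and its arms overlapped.

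Proteins of the minor spliceosome had 6 of 11 values below 0 (median -0.01), but 4 of 11 in FPKM without further scaling (median 0.14). SCNM1 was at 5.38 and 5.24 scaled FPKM in miR-28CT and at 0 in both miR-28BIO libraries (limma, unadjusted p = 0.000687, adjusted p = 0.305). CENATAC had the highest value, with 0 and 2.72 scaled FPKM in miR-28CT and 7.44 and 2.997 in miR-28BIO. SNRNP25 and ZMAT5, proteins of the U11/U12 particle, were at -1.17 (SE 0.41) and -2.04 (SE 0.67), with unadjusted p = 0.0464 and 0.0378 and adjusted p = 1.00 in limma. Of the other proteins of that particle, PDCD7 was at -0.01 (SE 0.86) and 4 lay above 0, with SNRNP48 at 0.85 (SE 1.18), ZCRB1 at 0.53 (SE 1.08), SNRNP35 at 0.25 (SE 0.46) and RNPC3 at 0.20 (SE 0.86), and the arms overlapped for these 5. ZCRB1 had the highest mean level of the list. For U7 and histone pre-mRNA processing 4 of 8 values were below 0 (median -0.03), and 3 of 8 in FPKM without further scaling (median 0.14). LSM10, which takes the place of an Sm protein in the ring on U7, was lowest at -1.09 (SE 0.46), the endonuclease CPSF3 highest at 0.74 (SE 0.52), and the stem-loop binding protein SLBP had the highest mean level, at -0.20 (SE 0.42).

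Genes that make and assemble snRNAs held the 2 largest positive values among the proteins with a value above 0 in every library. COIL, which encodes the Cajal body protein coilin, was at 10.7 and 2.82 scaled FPKM in miR-28CT and at 83.0 and 37.7 in miR-28BIO, a log2 fold change of 3.32 (SE 0.88, limma, unadjusted p = 0.0189, adjusted p = 1.00). CLNS1A, which encodes the chaperone pICln that delivers Sm proteins for assembly, was at 39.1 and 12.6 in miR-28CT and at 138.0 and 59.0 in miR-28BIO, a log2 fold change of 2.02 (SE 0.85). The study listed both among its targetome, chosen on these samples, so the direction is not independent evidence. Over the whole assembly list 14 of 23 values were below 0 (median -0.20), and 12 of 23 in FPKM without further scaling, with GEMIN6 lowest at -0.97 (SE 0.68). In the list of snRNA transcription and 3′ end processing 17 of 22 were below 0 (median -0.21), and 13 of 22 in FPKM without further scaling (median -0.05). INTS11, the endonuclease of the Integrator complex, had the highest mean level, and its arms overlapped. INTS14 was lowest at -3.38 (SE 1.57), with 1 miR-28BIO library at 0, and POU2F1 highest at 0.68 (SE 0.48). No gene of the 7 protein lists was called.

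**Figure D4:**
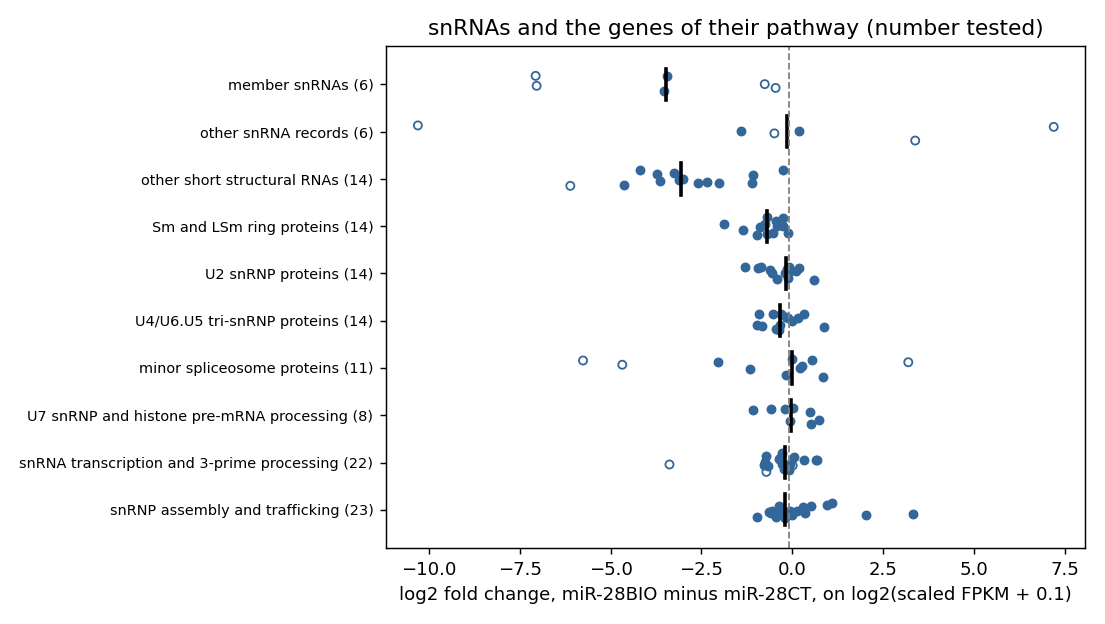
Log2 fold change (miR-28BIO minus miR-28CT, on log2(scaled FPKM + 0.1)) of each tested gene by list, with the number tested; black bars are list medians, the dashed line is the median of all genes (-0.08) and open symbols have a library at 0, so that their position depends on the pseudocount. Medians of the member snRNAs (-3.48) and other short structural RNAs (-3.06) lie left of those of the 7 protein lists (-0.70 to -0.01). That of the other snRNA records (-0.15) lies within the range of the protein lists, and single genes of the lists overlap.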

How the data were processed

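RNA from the miRNA pull out was sequenced in 4 libraries (2 miR-28CT, 2 miR-28BIO) as single reads of 50 bases from a stranded total RNA kit. Per the labels, the authors used FastQC 0.10.1, cutadapt, TopHat2 2.0.9 on hg38 and Cufflinks 2.1.1, and the study compared arms with Cuffdiff. The authors deposited, for each of 53209 RefSeq transcripts, the FPKM with its interval and status, the mean read coverage (a signal) and the transcript length in bases. Whether strand was used is not given in the sources used here. Reads per transcript could not be recovered, so no counting interval is given for any level.

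Identifiers were named through the RefSeq table for 97.1% of records. Records with status OK in all libraries (52530) were scaled by median-of-ratios factors (1.06, 0.850, 1.06 and 1.09 for the miR-28CT and then the miR-28BIO libraries) from the 11650 above 0 in all. They were summed per gene, kept at a mean of at least 0.5, and tested on log2(scaled FPKM + 0.1) with limma 3.58.1 (lmFit, eBayes with trend, R 4.3.3) and Benjamini-Hochberg adjustment at 0.05. A fold change on this scale understates that of low genes. The members and lists were chosen with earlier results of these data known. Named were all members, other short RNAs with a value above 0, and in each protein list the gene with the highest level, the highest and the lowest fold change. SNRNP25, ZMAT5, the other U11/U12 proteins and the pathway genes named as listed at 0 were chosen after their values were seen. Sequences were read from hg38 and overlaps from GENCODE v44 with Python 3.11.15 and Biopython 1.88. Some sequences are not reported here. Tested on simulated data with the spread of these 4 libraries, the fit did not call planted changes of nearly the size seen for U4, so the lack of a call does not show that levels were alike. Alternatives were the pseudocount, filter, scaling, coverage, status, record, trend, replicate block, leaving out each library and, added after seeing the data, the interval midpoint.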

Additional observations from a re-analysis of the deposited data

How the results depend on the processing

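All 6 tested member snRNAs had a log2 fold change below 0 under every alternative that kept all 4 libraries. Of 206 recomputed values, 173 stayed the same, 23 moved, 6 newly passed the threshold and 4 changed sign. A count stayed the same if it was 0 in both fits or within a set factor of the main one. A fold change did so if its sign and its side of the threshold held, and the median if it stayed within the spread. The 3 genes called lower fell to 0 with pseudocount 1, with no filter on low values, with a mean of at least 5, with coverage, with each record by itself, without trend and with the interval midpoint (limma, smallest adjusted p 0.0525 to 0.169 in these fits), and to 0 without each library in turn. The cause was not tested.

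The methods describe 2 biological replicates and do not say whether libraries with the same number came from one experiment. The deviations of miR-28CT and miR-28BIO replicate 1 from their group means correlated at r = 0.612 across genes, which is a hint of pairing from the data. In a fit with a replicate block, limma called 39 genes higher and 22 lower, and 3 of the 6 member snRNAs: RNU4-2 (log2 fold change -3.43, adjusted p = 0.0475), RNU5B-1 (adjusted p = 0.0470) and RNU12 (adjusted p = 0.0475), with RNU4-1 at 0.0652. Of the other snRNA records, RNU5E-1 was then called lower (adjusted p = 0.0475) and RNVU1-3 higher (adjusted p = 0.0470). Of the other short structural RNAs, SNORD3A was called lower in this fit (adjusted p = 0.0475). With the midpoint and the block, 299 genes were higher and 198 lower (4.24% of all), and 6 of 107 pathway protein genes were called (5.61%), COIL and CLNS1A higher and SNRPD2, SCNM1, TXNL4B and ZMAT5 lower. So were 3 member snRNAs: RNU4-1 (-2.39, adjusted p = 0.0230), RNU4-2 (-2.75, 0.0200) and RNU12 (adjusted p = 0.0491), with RNU5E-1 lower (adjusted p = 0.0230) and RNVU1-3 higher (adjusted p = 0.0383). The median over the member snRNAs was -2.57 with the midpoint, with and without the block.

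Leaving out 1 library each, the log2 fold change ran from -4.92 to -2.12 for RNU4-1 and from -4.80 to -2.07 for RNU4-2, and the median from -4.96 to -3.34. That of RNU11 ran from -5.31 to 3.79, turning to 3.79 without miR-28CT replicate 1 and 3.03 without miR-28BIO replicate 2. That of RNU5A-1 ran from -5.36 to 4.43, turning to 4.43 without miR-28CT replicate 2 and 3.97 without miR-28BIO replicate 1. In these fits the lone library of an arm is assumed to vary like the others, and no member snRNA was called. Of the 4 snRNAs lower in both miR-28BIO libraries, 2 (RNU4-1 and RNU4-2) had Cufflinks intervals that stayed apart between the arms. Values of 0 in miR-28BIO allow no fold for RNU5B-1 and RNU12.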
